A study of Mus musculus with 16 samples.

Results

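The 9 genes described here serve sodium and potassium absorption by the epithelial cells of the colon. They encode the 3 subunits of the epithelial sodium channel (Scnn1a, Scnn1b, Scnn1g), the sodium pump's β1 subunit Atp1b1 and its modulator Fxyd4, the colonic proton-potassium pump Atp12a, and 3 genes of the aldosterone pathway (Nr3c2, Hsd11b2, Sgk1). They were chosen by name, and each was measured by 1 probe set that the platform's annotation assigns to that gene alone. All 9 of 9 were measured, among 19938 genes tested.

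Expression was measured on 16 whole-transcript arrays of colonic epithelial cells from C57BL/6 mice, each array carrying RNA pooled from 3 gender-matched mice aged 70 days. All offspring were either Pigr-/- or Pigr+/-, so that no group carried 2 intact copies of Pigr, the receptor that moves secretory IgA (SIgA) across the epithelium. Passive SIgA reached the young in the milk of Pigr+/- dams and was lacking with Pigr-/- dams, and active SIgA was transported by Pigr+/- offspring and lacking in Pigr-/- offspring. The mice drank 2% dextran sulfate sodium (DSS), which injures the colonic epithelium, for 8 days, or were left untreated. The 4 SIgA groups were offspring with neither source (Pigr-/- from Pigr-/- dams), offspring with active SIgA only (Pigr+/- from Pigr-/- dams), offspring with passive SIgA only (Pigr-/- from Pigr+/- dams) and offspring with both (Pigr+/- from Pigr+/- dams). Each was measured after DSS and untreated, with 2 pools in each of the 8 groups. Passive SIgA was set by the dam, so that dam and litter cannot be told apart from it.

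Sodium enters surface colonocytes through the epithelial sodium channel of the apical membrane and leaves through the sodium pump of the basolateral membrane, and water follows. The colonic proton-potassium pump takes potassium back from the lumen. Both routes are known from the distal colon and are stimulated by aldosterone, which acts through the mineralocorticoid receptor Nr3c2. Hsd11b2 inactivates corticosterone in the same cells and so leaves the receptor to aldosterone, and the kinase Sgk1, a target gene of the receptor, keeps the channel in the membrane.

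Levels are log2 intensities, on which 1 unit is a doubling, and a level of one gene's probe set cannot be set against that of another. Array medians lay between 6.68 and 6.83. Pigr, the targeted gene, averaged 11.53 ± 0.14 in Pigr-/- offspring and 12.38 ± 0.09 in Pigr+/- offspring (SD, n = 8 each), with no overlap. The 2 untreated arrays with both sources of SIgA and untreated replicate 1 with active SIgA only stood apart from the rest, at -35.2 to -32.2 on a first principal component that held 34.1% of the variance, against -5.52 to 27.4 for the remaining arrays. Where a call on 1 of the 9 genes changed without them, the value without them is given beside it. The epithelial markers had a mean level over 12 genes of 12.01 to 12.13 in DSS arrays and of 12.01 to 12.13 in untreated arrays, and 1 of the 12, the keratin Krt18, was called lower after DSS (-0.20 ± 0.06, adjusted p = 0.0444). Of 4 sex-linked genes measured none was called after DSS. Over the arrays Xist spanned 11.36 to 12.58, and the Y-linked genes Eif2s3y, Uty and Kdm5d spanned 6.98 to 9.23, 6.52 to 8.61 and 6.53 to 8.20. Their part in the differences was not tested.

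**Figure D1:**
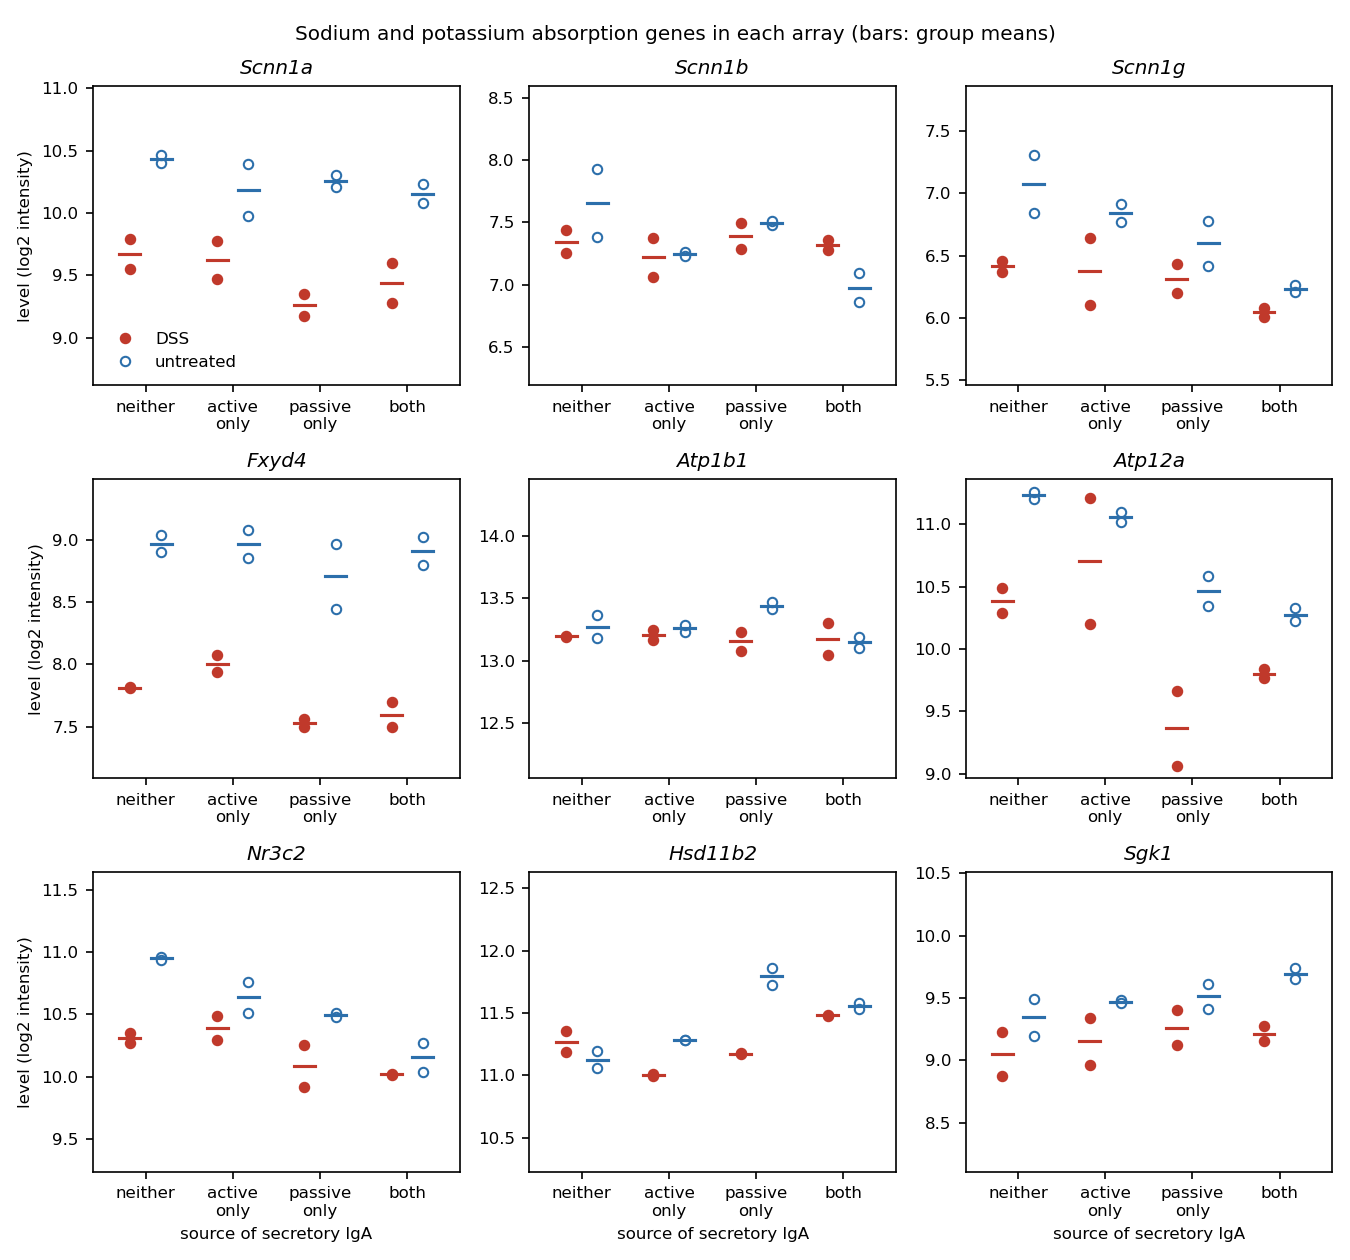
Level of each gene in every array (log2 intensity) by source of SIgA, with DSS arrays as filled red points left of untreated arrays as open blue points; bars are means of 2 arrays and every panel spans the same number of log2 units. Fxyd4, Scnn1a and Nr3c2 separate by DSS in every SIgA group, Nr3c2 only narrowly with both sources. Atp12a is higher in the groups with neither source or active SIgA only.

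DSS was first compared with no treatment, 8 arrays against 8, as the mean of the differences in the 4 SIgA groups. Expression of 7 of the 9 genes fell and none rose (limma, adjusted p under 0.05 over all 19938 genes). Among all genes, 6.73% were called lower and 6.4% higher. The median difference was -0.36 (log2) over the 9 genes and -0.00438 over all genes. The fall was 2.22-fold for Fxyd4, 1.69-fold for Scnn1a, 1.62-fold for Atp12a and between 1.16-fold and 1.32-fold for Scnn1g, Nr3c2, Sgk1 and Hsd11b2, while Scnn1b and Atp1b1 did not pass. In pooled RNA of an isolate, fewer cells of a type and less RNA per cell cannot be told apart. All 7 calls remained in each of the 16 fits that left out 1 array. Without the 2 untreated arrays with both sources, which leaves 3 SIgA groups, 6 genes were called lower, and without all 3 arrays that stood apart 5 were.

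**Figure D2:**
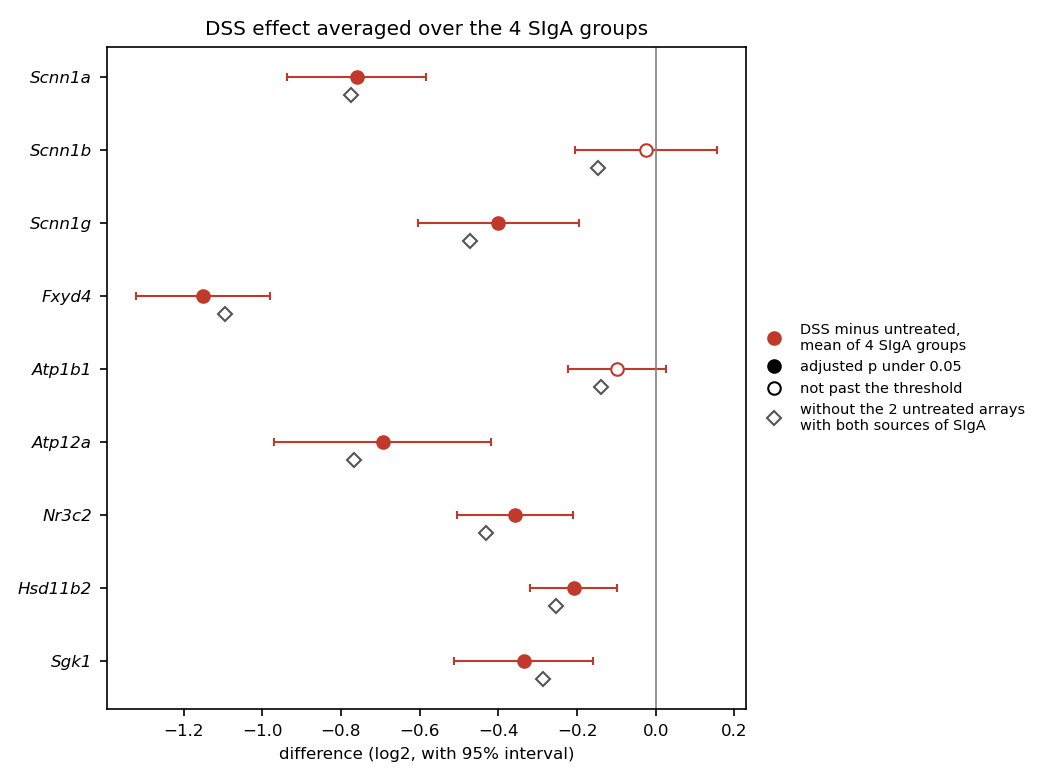
Average DSS effect on each gene (log2, DSS minus untreated, with its 95% interval); filled points passed the test, and grey diamonds are the values without the 2 untreated arrays with both sources of SIgA. Fxyd4 at -1.15 lies farthest from 0, and the intervals of Scnn1b and Atp1b1 include 0.

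The channel subunits were examined first. Scnn1a, the α subunit that the channel cannot do without, had a lowest, median and highest level of 9.18, 9.51 and 9.79 in the 8 DSS arrays, against 9.98, 10.27 and 10.46 in the 8 untreated arrays. Every DSS array lay below every untreated array, a separation shown by 1.3% of all genes, and the difference was -0.76 ± 0.08 (SE; adjusted p = 4.57e-05). Scnn1g, the γ subunit, had 6.01, 6.28 and 6.64 in DSS arrays, against 6.20, 6.77 and 7.31 in untreated arrays. The ranges overlapped, and Scnn1g fell by 0.40 ± 0.09 (adjusted p = 0.0136). Its levels lay on both sides of the array medians.

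Scnn1b, the β subunit, had 7.07, 7.32 and 7.49 in DSS arrays, against 6.86, 7.32 and 7.93 in untreated arrays. The untreated arrays lay on both sides of the DSS arrays. Its difference was -0.02 ± 0.08 (adjusted p = 0.907), with a 95% interval of -0.21 to 0.16. With both sources of SIgA its 2 DSS arrays lay above the untreated arrays, at 7.28 and 7.36 against 7.09 and 6.86. That difference did not pass (0.34, adjusted p = 0.233), and its untreated side consists of arrays that stood apart. Without those 2 untreated arrays the average DSS effect on Scnn1b was -0.15 (adjusted p = 0.536). In the other groups the arrays overlapped, with 7.44 and 7.26 after DSS against 7.39 and 7.93 untreated where neither source was present. In rat colon, aldosterone is known to raise the β and γ subunits' mRNA.

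Scnn1b and Scnn1g lie side by side on chromosome 7, with only the predicted gene Gm36848 between their starts in the RefSeq order. The 250 bases before each start are shown because the neighbours are the channel subunits known to share a hormone response. The sequences are from RefSeq (GRCm38.p6, plus strand), and capitals would mark the hexamer AGAACA or its reverse complement TGTTCT, the core letters bound by the mineralocorticoid and glucocorticoid receptors.
Scnn1g, chr7:121734229-121734478: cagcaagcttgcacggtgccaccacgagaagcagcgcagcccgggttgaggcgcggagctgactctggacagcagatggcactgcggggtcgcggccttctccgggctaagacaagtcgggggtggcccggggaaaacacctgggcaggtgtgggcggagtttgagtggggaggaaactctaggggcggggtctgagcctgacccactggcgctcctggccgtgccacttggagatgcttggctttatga
Scnn1b, chr7:121864788-121865037: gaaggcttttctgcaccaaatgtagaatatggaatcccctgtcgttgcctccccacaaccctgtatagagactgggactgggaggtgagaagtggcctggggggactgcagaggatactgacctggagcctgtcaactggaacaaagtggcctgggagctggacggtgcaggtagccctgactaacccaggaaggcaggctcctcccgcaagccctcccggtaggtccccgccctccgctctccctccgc
Neither holds the hexamer. On either strand it is found in 18.97% of the 32851 promoter windows in the table (300 bases, 250 before to 50 after a start), so these letters are missing from most windows. Of the 9 genes, 6 had an entry, with 11 windows in all.

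On the basolateral side, Fxyd4, also known as corticosteroid hormone-induced factor, raises the sodium affinity of the pump. It had 7.50, 7.75 and 8.08 in DSS arrays, against 8.45, 8.93 and 9.07 in untreated arrays. All DSS arrays again lay below all untreated arrays, and the difference of -1.15 ± 0.08 (adjusted p = 1.04e-06) was the largest among the 9 genes. Atp1b1, the pump's β1 subunit, had 13.04, 13.20 and 13.31 in DSS arrays, against 13.10, 13.26 and 13.47 in untreated arrays. The ranges overlapped, and the difference was -0.10 ± 0.06 (adjusted p = 0.324; 95% interval -0.22 to 0.03). The interval of Fxyd4, -1.32 to -0.98, did not reach that of Atp1b1.

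Atp12a, the catalytic subunit of the colonic proton-potassium pump, had 9.06, 10.02 and 11.21 in DSS arrays, against 10.22, 10.80 and 11.26 in untreated arrays. The fall of 0.69 ± 0.13 (adjusted p = 0.00297) stood beside a wide spread within both conditions. Replicate 2 of the DSS group with active SIgA only, at 11.21, was as high as the untreated arrays of that group, at 11.10 and 11.02, whereas replicate 1 was at 10.20. In the other SIgA groups both DSS arrays lay below both untreated arrays. The difference of means was largest with passive SIgA only, with 9.06 and 9.66 after DSS against 10.59 and 10.34 untreated.

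In the hormone pathway, Nr3c2 had 9.92, 10.26 and 10.48 in DSS arrays, against 10.04, 10.51 and 10.96 in untreated arrays. It fell by 0.36 ± 0.07 (adjusted p = 0.00366), and the DSS arrays lay below the untreated arrays within all 4 SIgA groups. For this and the other members, the share of all genes with such gaps within single SIgA groups was not counted. Hsd11b2 had 10.99, 11.18 and 11.49 in DSS arrays, against 11.05, 11.41 and 11.86 in untreated arrays. Its fall of 0.21 ± 0.05 (adjusted p = 0.0168) was the smallest that passed. Without the 3 arrays that stood apart it was -0.25 (adjusted p = 0.0519).

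Sgk1 had 8.87, 9.19 and 9.40 in DSS arrays, against 9.20, 9.49 and 9.74 in untreated arrays. It fell by 0.34 ± 0.08 (adjusted p = 0.0158), and the DSS arrays lay below the untreated arrays in 3 of the 4 SIgA groups. The call held in each of the 16 fits that left out 1 array. The 2 untreated arrays with both sources held the highest Sgk1 levels of the study at 9.65 and 9.74. Without both of them, which leaves 3 SIgA groups, the difference was -0.29 (adjusted p = 0.124). Why the call was lost was not tested. RefSeq lists 6 starts for Sgk1, and 3 of these windows hold the hexamer. The other windows searched, those of Scnn1b, Scnn1g, Fxyd4, Atp1b1 and Nr3c2, do not. The window below was picked after its letters were seen, because it is 1 of 3 among all 32851 (0.00913%) with AGAACA, 3 bases of any kind and TGTTCT in a row, the palindrome of a corticosteroid response element. The arrangement begins 189 bases before that start. Capitals mark each hexamer.
Sgk1, chr10:21993640-21993889 (plus strand, GRCm38.p6): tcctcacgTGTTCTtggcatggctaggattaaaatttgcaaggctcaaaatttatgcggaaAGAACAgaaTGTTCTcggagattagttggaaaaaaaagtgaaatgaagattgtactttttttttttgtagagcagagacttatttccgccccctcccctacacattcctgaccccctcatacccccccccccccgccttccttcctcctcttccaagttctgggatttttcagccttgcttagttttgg
The match is a description of these letters, and the probe set does not tell the 6 starts apart.

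Within single SIgA groups, 2 arrays against 2, Fxyd4 was called lower after DSS in all 4. With neither source the DSS arrays had 7.82 and 7.81, against 8.90 and 9.04 untreated, a 2.23-fold fall (adjusted p = 0.00269). With active SIgA only they had 7.94 and 8.08, against 8.86 and 9.07, a 1.94-fold fall (adjusted p = 0.00966). With passive SIgA only they had 7.56 and 7.50, against 8.45 and 8.96, a 2.26-fold fall (adjusted p = 0.00156). With both sources they had 7.69 and 7.50, against 9.02 and 8.80, a 2.49-fold fall (adjusted p = 0.00018). The 4 falls lay between 0.96 and 1.31 on the log2 scale.

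Scnn1a was called lower in 3 groups. It had 9.79 and 9.55 after DSS against 10.40 and 10.46 untreated with neither source (adjusted p = 0.043), 9.18 and 9.35 against 10.21 and 10.31 with passive SIgA only (adjusted p = 0.0063), and 9.28 and 9.60 against 10.08 and 10.23 with both (adjusted p = 0.0139). With active SIgA only it had 9.47 and 9.77 against 9.98 and 10.40, which did not overlap but did not pass (adjusted p = 0.146).

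Nr3c2 fell with neither source, with 10.36 and 10.27 after DSS against 10.96 and 10.94 untreated (-0.64 ± 0.14, adjusted p = 0.0423). With passive SIgA only, Hsd11b2 fell to 11.17 and 11.18 after DSS, against 11.86 and 11.73 untreated (-0.62 ± 0.10, adjusted p = 0.00634), and Atp12a fell by 1.10 ± 0.26 (adjusted p = 0.0454). With neither source 3 of the 9 genes were thus called lower, against 0.627% of all genes, and between 0 and 3 were when 1 array was left out. With active SIgA only it was 1 gene, against 0.376% of all genes, and 0 or 1 without 1 array. For passive SIgA only the count was 4, against 1.08% of all genes, and 1 to 4 without 1 array. For both sources it was 2, against 6.53% of all genes, and 1 or 2 without 1 array. Of the single calls, Fxyd4 held in all 16 such fits with passive SIgA only and with both. Nr3c2 and Scnn1a with neither source held in 6 of 16 each, and Atp12a with passive SIgA only in 7 of 16. Scnn1a held in 14 of 16 both with passive SIgA only and with both sources, and Hsd11b2 with passive SIgA only in 13 of 16. Without both untreated arrays with both sources, which enter these fits through the shared spread, 3 calls were lost, Atp12a with passive SIgA only (adjusted p = 0.0698) and Scnn1a and Nr3c2 with neither source (adjusted p = 0.0654 and 0.0524). Without all 3 arrays that stood apart, Atp12a with passive SIgA only was at adjusted p = 0.0695, while Scnn1a and Nr3c2 with neither source passed. With both sources the whole untreated side consists of these arrays, so the calls of Fxyd4 and Scnn1a there have no value without them.

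Markers of other cells moved with DSS in the same arrays, in which 6.73% of all genes were called lower and 6.4% higher. Of 12 neutrophil markers 9 rose, with a mean level of 6.63 to 7.26 in DSS arrays and of 5.89 to 6.31 in untreated arrays. Of 13 monocyte and macrophage markers 8 rose, with a mean of 6.32 to 6.57 in DSS arrays and of 5.80 to 6.21 in untreated arrays. Of 7 fibroblast markers 2 rose, and of 9 lymphocyte markers 1 fell. Of 6 goblet cell markers 1 rose, Tff3 (0.38, adjusted p = 0.00366), and 2 fell, Atoh1 (-0.39, adjusted p = 0.00764) and Clca1 (-0.27, adjusted p = 0.0287), with a mean over the 6 of 11.73 to 12.06 in DSS arrays and of 11.74 to 12.10 in untreated arrays. Among 9 surface colonocyte markers 4 fell, with a mean of 12.66 to 12.96 in DSS arrays and of 12.96 to 13.15 in untreated arrays, and the water channel Aqp8 was at -0.96 ± 0.10. Among 7 Hox genes of the distal colon 3 fell, with a mean of 7.39 to 7.76 in DSS arrays and of 7.61 to 8.16 in untreated arrays, and Hoxb13 was at -0.62 ± 0.06. The part of these shifts in the falls of the absorption genes was not tested. RMA intensities have no true zero, so that no marker can be given as absent.

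Lack of passive SIgA was compared with its presence, first in untreated mice, 4 arrays against 4. Atp12a and Nr3c2 were higher and Hsd11b2 was lower where passive SIgA was lacking, which made 3 of 9 genes, against 2.58% of all genes called in either direction. Atp12a had 11.20 and 11.26 with neither source and 11.10 and 11.02 with active SIgA only, against 10.59 and 10.34 with passive SIgA only and 10.22 and 10.33 with both. The sets did not overlap, and Atp12a was 1.71-fold higher where passive SIgA was lacking (0.78 ± 0.18, adjusted p = 0.0435). Hsd11b2 had 11.05 and 11.19 with neither source and 11.28 in both arrays with active SIgA only, against 11.86 and 11.73 with passive SIgA only and 11.58 and 11.53 with both. Here too the sets did not overlap, and Hsd11b2 was 1.39-fold lower (-0.47 ± 0.07, adjusted p = 0.0052). A gap between such sets in either direction was shown by 2 of the 9 genes and by 6.19% of all genes.

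Nr3c2 had 10.96 and 10.94 with neither source and 10.51 and 10.76 with active SIgA only, against 10.51 and 10.48 with passive SIgA only and 10.28 and 10.04 with both. The sets overlapped only at 10.51, and the difference was 0.47 ± 0.10 (adjusted p = 0.0255). Scnn1g, at 6.84, 7.31, 6.77 and 6.92 in the arrays lacking passive SIgA against 6.42, 6.78, 6.27 and 6.20, did not pass (0.54 ± 0.13, adjusted p = 0.0522).

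The Hsd11b2 call held in all 16 fits that left out 1 array. The Nr3c2 call was lost without replicate 2 of the untreated group with both sources and without any array of the untreated groups with neither source or passive SIgA only, with values of 0.41 to 0.48. The Atp12a call was lost without any one of the 8 untreated arrays or either DSS array with neither source, with values of 0.71 to 0.84 and adjusted p up to 0.144. Without both untreated arrays with both sources, the arrays with active SIgA only have no counterpart and drop out as well. What remains is neither source against passive SIgA only, in Pigr-/- offspring, with 2 arrays on each side. The differences were then 0.76 for Atp12a (adjusted p = 0.568), 0.45 for Nr3c2 (adjusted p = 0.464) and -0.67 for Hsd11b2 (adjusted p = 0.259). Leaving out all 3 arrays that stood apart cannot change these differences, because the group of the third array had already dropped out. The surface colonocyte markers had a mean level of 12.96 to 13.15 where passive SIgA was lacking and of 12.97 to 13.01 where it was present, and the neutrophil markers one of 5.89 to 6.31 where it was lacking and of 5.90 to 6.07 where it was present. One of the 7 distal Hox genes was called higher, with a mean over the 7 of 7.90 to 8.00 where passive SIgA was lacking and of 7.61 to 8.16 where it was present. Their part in these differences was not tested.

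After DSS, none of the 9 genes passed for lack of passive SIgA, and neither did any other gene, 0% of the 19938 (limma). An unadjusted p under 0.05 was reached by 5 of the 9 genes and by 788 of all genes. Atp12a had 10.49 and 10.29 with neither source and 10.20 and 11.21 with active SIgA only, against 9.06 and 9.66 with passive SIgA only and 9.84 and 9.76 with both. The sets did not overlap, and the difference was 0.96 ± 0.18 (adjusted p = 0.126), beside 0.78 untreated. It passed with a trend in the prior variance (adjusted p = 0.0421) and without replicate 1 of the DSS group with active SIgA only, where it was 1.22 (adjusted p = 0.0239). Fxyd4 had 7.82, 7.81, 7.94 and 8.08 in the arrays lacking passive SIgA, against 7.56, 7.50, 7.69 and 7.50. These sets also did not overlap, with a difference of 0.35 ± 0.11 (adjusted p = 0.919). The third gene without overlap was Nr3c2, with 0.30 ± 0.10 (adjusted p = 0.919). A gap of this kind was shown by 3.08% of all genes.

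**Figure D3:**
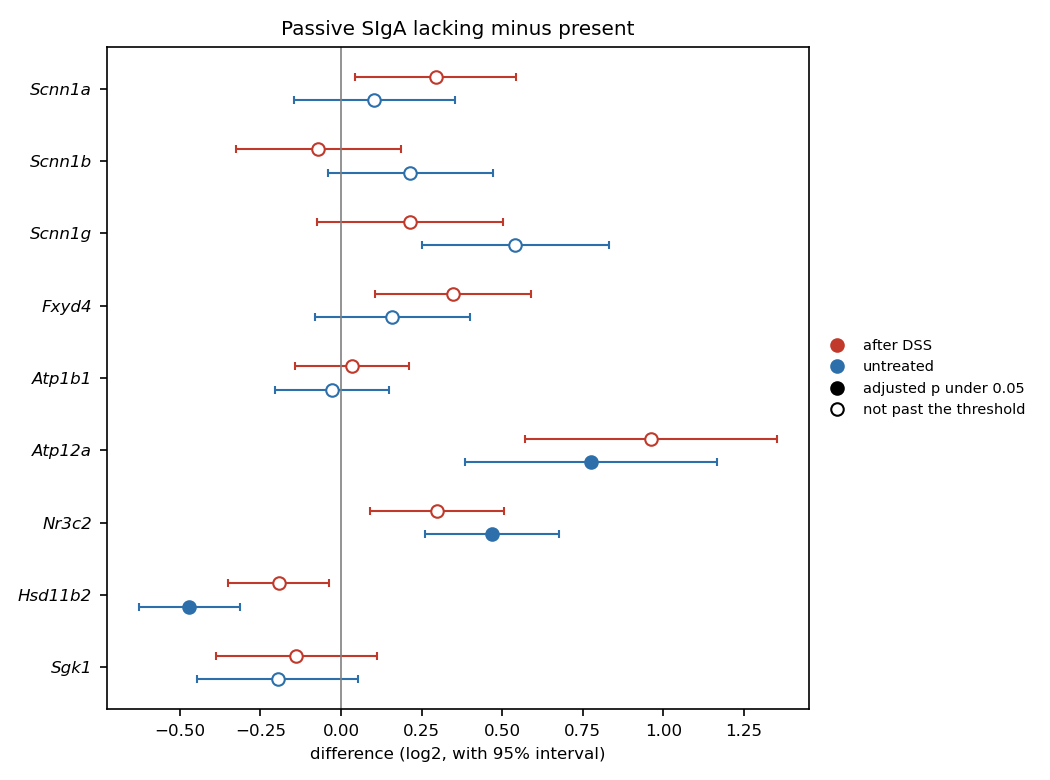
Difference between arrays lacking and having passive SIgA (log2, with 95% interval) for each gene after DSS (red, upper) and untreated (blue, lower); filled points passed the test. Atp12a lies to the right in both conditions, at 0.96 and 0.78, and Hsd11b2 at -0.47 untreated is farthest to the left.

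Lack of active SIgA was compared in the same way. In untreated mice 1 of 9 genes passed, against 7.49% of all genes. Scnn1b was 1.38-fold higher in Pigr-/- offspring, with 7.39 and 7.93 with neither source and 7.48 and 7.51 with passive SIgA only, against 7.26 and 7.23 with active SIgA only and 7.09 and 6.86 with both (0.47 ± 0.12, adjusted p = 0.0333). The 4 arrays lacking active SIgA all lay above the 4 having it, and 10.3% of all genes showed such a gap in either direction. The call was lost without replicate 2 of the untreated group with neither source, at 0.33 (adjusted p = 0.153), and without replicate 2 with both sources, replicate 1 with active SIgA only or either replicate with passive SIgA only, at 0.41 to 0.47. Without the 2 untreated arrays with both sources, only neither source against active SIgA only is compared. The difference was then 0.41 (adjusted p = 0.447). Without all 3 arrays that stood apart it was 0.43, with 1 array left on the side having active SIgA. Nr3c2, at 10.72 ± 0.26 in untreated arrays lacking active SIgA and 10.40 ± 0.31 in those having it (SD, n = 4 each), did not pass (0.33 ± 0.10, adjusted p = 0.0575).

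After DSS no member passed for lack of active SIgA, and none of the 9 had an unadjusted p under 0.05. Among all genes 0.00502% passed, and 330 had an unadjusted p under 0.05. Scnn1b had 7.44 and 7.26 with neither source and 7.28 and 7.49 with passive SIgA only, against 7.07 and 7.37 with active SIgA only and 7.28 and 7.36 with both. The sets overlapped (0.10 ± 0.12, 95% interval -0.16 to 0.35).

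Whether the DSS effect depended on the source of SIgA was tested by interaction terms. For passive SIgA, active SIgA and both jointly, none of the 9 genes passed, against 0.115%, 0.843% and 0.0602% of all genes (limma). Unadjusted p-values under 0.05 were reached by 1, 3 and 1 of the 9 genes, and by 1622, 2388 and 1353 of all 19938 genes. The 3 for active SIgA were Scnn1b (-0.37 ± 0.17), Atp12a (-0.56 ± 0.26) and Nr3c2 (-0.33 ± 0.14), each with a more negative DSS effect in Pigr-/- than in Pigr+/- offspring and an adjusted p between 0.355 and 0.415. The term that joins both sources gave 0.98 ± 0.20 for Hsd11b2 (adjusted p = 0.122). Its DSS effect was 0.15 with neither source and -0.28 with active SIgA only, and it was -0.62 with passive SIgA only and -0.07 with both. The arrays with neither source overlapped, at 11.35 and 11.19 after DSS against 11.05 and 11.19 untreated. With quantile normalization of the genes tested the term was 1.03 (adjusted p = 0.0466).

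Other genes of the pathway were read from 5 lists in the average DSS effect. Up to 4 of each are named by smallest p, and further ones are marked as named after their values were seen. In this effect 6.73% of all genes were called lower and 6.4% higher. Of 18 regulators of the sodium channel, 3 fell and none rose, with a median of -0.02. Usp2, a deubiquitinating enzyme of the channel, fell by 0.53 ± 0.11 (adjusted p = 0.0057), Cnksr3, an aldosterone-induced scaffold of the channel's regulators, by 0.41 ± 0.06 (adjusted p = 0.000939) and the kinase Wnk4 by 0.22 ± 0.05 (adjusted p = 0.0139). Tmprss4, a protease that activates the channel, was at 0.17 ± 0.06 (adjusted p = 0.0722). In 2 of the 16 fits that left out 1 array, without replicate 2 of the DSS group with both sources or of the untreated group with active SIgA only, 1 of the list rose. Of 12 genes of the corticosteroid receptor pathway, which share Cnksr3 with the first list, 3 fell and 1 rose, with a median of -0.11. Klf9 and Tsc22d3, both induced by glucocorticoids, fell by 0.28 ± 0.06 (adjusted p = 0.00772) and 0.24 ± 0.06 (adjusted p = 0.0195). Fkbp4, a co-chaperone of steroid receptors, rose by 0.23 ± 0.05 (adjusted p = 0.0136). Without the 3 arrays that stood apart, 1 of this list fell and none rose.

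Of 9 sodium pump subunits and FXYD proteins analysed here, 1 fell and 1 rose, with a median of 0.00. Fxyd5, an FXYD protein also called dysadherin, averaged 7.69 ± 0.21 in DSS arrays and 6.91 ± 0.11 in untreated arrays (SD, n = 8 each), without overlap. It rose by 0.78 ± 0.08 (adjusted p = 4.32e-05), opposite to its relative Fxyd4. Fxyd3 fell by 0.29 ± 0.08 (adjusted p = 0.0206), a call lost without the untreated arrays with both sources and in 5 of the 16 fits without 1 array. Atp1b3 was at 0.21 ± 0.11 (adjusted p = 0.26) and Atp1b2 at -0.14 ± 0.07 (adjusted p = 0.266). Without replicate 2 of the untreated group with active SIgA only, 2 of the list rose.

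Of 19 potassium pumps, channels and cotransporters, 5 fell and 2 rose, with a median of -0.10. Kcnk6, a channel with paired pore domains, rose by 0.47 ± 0.07 (adjusted p = 0.000484), whereas Kcnk5 of the same family fell by 0.34 ± 0.06 (adjusted p = 0.00238). Kcnq1 and its partner Kcne3, which form a basolateral potassium channel, fell by 0.30 ± 0.07 (adjusted p = 0.0127) and 0.22 ± 0.06 (adjusted p = 0.0268). The number that fell was 2 or 3 in 10 of the 16 fits that left out 1 array, and 1 without the untreated arrays with both sources. The number that rose was 1 in 12 of those 16 fits.

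Of 14 measured genes of electroneutral sodium absorption, the route by sodium-proton and chloride-bicarbonate exchange, 7 fell and none rose, with a median of -0.20. Chp2, a cofactor of the exchangers, fell by 0.63 ± 0.08 (adjusted p = 0.000113), the chloride-bicarbonate exchanger Slc26a3 by 0.47 ± 0.08 (adjusted p = 0.00165), the sodium-proton exchanger Slc9a2 by 0.40 ± 0.06 (adjusted p = 0.000487) and the scaffold Slc9a3r1 by 0.30 ± 0.06 (adjusted p = 0.00553). The apical exchanger Slc9a3, named after its values were seen, fell by 0.43 ± 0.12 (adjusted p = 0.0266). Without the untreated arrays with both sources 4 of the list fell. In untreated mice lacking passive SIgA, 1 gene each of the channel regulators and of this list was called higher, Wnk4 (0.31 ± 0.07, adjusted p = 0.0418) and Slc9a3 (0.67 ± 0.16, adjusted p = 0.0492). From the list of potassium pumps, channels and cotransporters the potassium channel Kcnk1, named after its values were seen, was called lower there (-0.33 ± 0.07, adjusted p = 0.0333), and 2.58% of all genes were called in either direction. Without the untreated arrays with both sources, only neither source against passive SIgA only is compared, and none of these 3 genes passed. The values were 0.30 for Wnk4 (adjusted p = 0.574), 0.83 for Slc9a3 (adjusted p = 0.46) and -0.01 for Kcnk1.

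**Figure D4:**
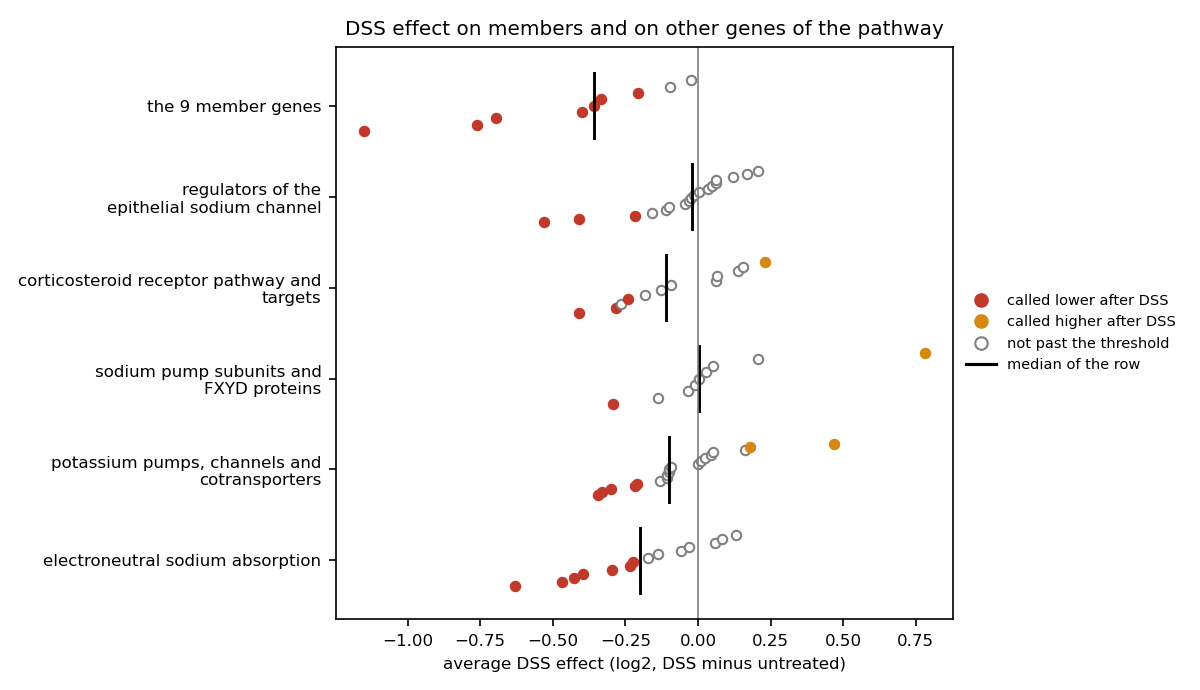
Average DSS effect (log2, DSS minus untreated) of the 9 genes and of each gene of 5 pathway lists; red points were called lower, orange points higher, open points did not pass, and black bars are medians. The median is -0.36 for the 9 genes and -0.20 for the electroneutral sodium absorption list, which includes Slc5a1 and Slc5a8. Fxyd5 stands alone at 0.78 among the sodium pump genes.

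The genes whose level followed Atp12a most closely over the 16 arrays, among 9553 genes of at least median level, were Myo5c (Pearson r = 0.92), Usp54 (0.91), Slc26a3 (0.90), Clcn2 (0.90) and Spata13 (0.89). Usp54, Slc26a3, Clcn2 and Spata13 were also called lower after DSS, at -0.43, -0.47, -0.18 and -0.27, and Myo5c was at -0.11 (adjusted p = 0.232). For Scnn1b they were Prdm10 (0.87), Abl1 (0.86), Zfp865 (0.84), Kif13a (0.84) and Pus7 (0.83), none of which was called after DSS. These arrays share treatment and SIgA groups, so the values describe likeness of pattern alone.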

How the data were processed

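The members and the gene lists were chosen with earlier results of these data known. The deposited values are log2 intensities of 35557 probe sets on 16 arrays, made by the authors with RMA per the submitters' processing notes, with its version not given in the sources read. The probe sets with 1 gene in the platform annotation (21789) were kept. For 999 genes with several, the one of highest mean was taken, which left 19938 genes. Each member had 1.

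Means of the 8 groups were fitted with limma 3.58.1 in R 4.3.3 (8 residual and 5.03 prior degrees of freedom), two-sided, adjusted by Benjamini-Hochberg over all genes and called under 0.05. Differences are DSS minus untreated, and SIgA lacking minus present, ± standard error. Named genes were all members, up to 4 of each list by smallest p, Pigr, and the 5 most like Scnn1b and Atp12a. Outside that rule, Slc9a3, Kcnk1, Slc5a1, Slc5a8 and single marker genes were named after their values were seen. The fit was tested on simulated data with independent noise, which held no arrays like the 3 that stood apart and so does not address them. Same-numbered replicates of different groups did not all deviate together (correlations of -0.30 to 0.67, above 0.1 in 14 of 28 pairs of groups), so no block was used. Replicates were separate pools, so each p-value rests on variation among pools rather than single mice. Precision is limited by how few arrays there are. The labels name no batch. Promoter windows are from RefSeq (GRCm38.p6).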

Additional observations from a re-analysis of the deposited data

How the results depend on the processing

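Across 27 alternatives, the average DSS effect lay between -1.22 and -1.09 for Fxyd4, -0.85 and -0.71 for Scnn1a, -0.82 and -0.57 for Atp12a, and -0.15 and 0.04 for Scnn1b, which passed in none. Requiring a fold of at least 1.5 left 3 members called on average, ending the calls of Scnn1g (-0.40), Nr3c2 (-0.36), Sgk1 (-0.34) and Hsd11b2 (-0.21), and left 1 for lack of passive and 0 for lack of active SIgA in untreated mice. It took all genes called to 338, against 2618. Without the 2 untreated arrays with both sources, 1210 genes were called and Sgk1 was at -0.29 (adjusted p = 0.124). For lack of passive or of active SIgA untreated, neither source was then compared with 1 other group. Without these 2 arrays, 1, 0 and 0 members passed for DSS with neither source and for lack of passive and of active SIgA untreated. Without those and untreated replicate 1 with active SIgA only, 1107 genes were called, Sgk1 was at -0.28 (adjusted p = 0.177), Hsd11b2 at -0.25 (adjusted p = 0.0519), and 0 members passed for either lack of SIgA untreated. A fit of only the arrays compared left 1 member for DSS with both sources, 0 with active SIgA only and 0 for lack of active SIgA untreated. Array weights left 0 in the last 2 of these. Quantile normalization gave 2 for DSS with active SIgA only, 0 for lack of active SIgA untreated and 1 for the term joining both sources and DSS. Centring on medians left 1 for DSS with neither source, and leaving out the dimmest 30% of genes left 0 for lack of active SIgA untreated. For lack of passive SIgA untreated, the Nr3c2 call was lost with centring (adjusted p = 0.0612) and with only the arrays compared (adjusted p = 0.0651). The Atp12a call there was lost with array weights (adjusted p = 0.0846) and without the dimmest 30% of genes (adjusted p = 0.0521). A trend in the prior variance gave 1 for lack of passive SIgA after DSS and 2 for lack of active SIgA untreated. The replicate block gave 2 for lack of active SIgA untreated, Scnn1b and Nr3c2, let Scnn1g pass for lack of passive SIgA untreated (adjusted p = 0.0206), and moved no other count of members by over 1.5 times. Leaving out each array in turn gave 7 members on average, 1 to 2 for DSS with both sources, 1 to 4 with passive SIgA only, 0 to 1 with active SIgA only and 0 to 3 with neither, 1 to 4 and 0 to 2 for lack of passive and of active SIgA untreated, and 0 to 1 for lack of passive SIgA after DSS. The causes were not tested. No called value changed sign. With 2 pools a group, the comparisons within 1 SIgA group were the least precise.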
